A study of Owenia fusiformis with 14 samples.

Results

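The 64 genes described here stood highest in blastulae of the annelid *Owenia fusiformis* that had been treated with recombinant Activin A (rActivin A), out of 27042 genes in all. They were chosen by their values. The estimated counts of all transcripts of a gene were summed and scaled to a library total of 1000000 (CPM). A gene was taken if its lower CPM in the 2 rActivin A libraries was at least 5 and at least 2 times its highest CPM in any of the other 12 libraries, which 68 genes met. Of these, 4 were dropped because their highest CPM after the Activin/Nodal inhibitor SB431542 was at most their lowest CPM in its solvent control divided by 1.5. Every contrast of rActivin A with another condition was thus used in the choice, and its values below are a description that supports nothing.

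The study treated embryos around the time of axial patterning and collected them as whole blastulae at 6 h post fertilisation (hpf), with 2 bulk mRNA libraries in each of 7 conditions. From 4 to 6 hpf, embryos were kept in rActivin A, recombinant zebrafish BMP4 (rBMP4), a mock solution without ligand, the BMP receptor inhibitor DMH1 at 20 µM, or its control of 0.2% DMSO. From 3 to 6 hpf, others were kept in SB431542 at 40 µM or in its control of 0.4% DMSO. The labels give 75 ng/µl for rActivin A and 1000 ng/µl for rBMP4. The supplementary tables of the study print the same numbers per ml, so the working dose is uncertain by its unit. The sample titles spell the inhibitor SB435421 and the treatment protocol SB431542, and the libraries were taken as SB431542. Each condition was a single dose and window applied to whole embryos in glass bowls of seawater, and no source says that replicates were separate cultures. The p-values therefore measure only the spread between these samples, which may be technical.

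Activin and Nodal are ligands of the TGF-β superfamily. They bring together type I and type II serine/threonine kinase receptors at the cell surface, and the type I receptor then phosphorylates SMAD2/3, which enters the nucleus and regulates transcription. BMP ligands use other receptors of the same superfamily and act through SMAD1/5/8, and Chordin is an extracellular antagonist that binds BMPs. SB431542 blocks the type I receptors of the Activin/Nodal branch and DMH1 those of the BMP branch. Both branches are known for their roles in specifying the body axes of animal embryos. None of the 64 identifiers matched a gene name in the sources used here, so each gene is given by its identifier and no role is assigned to it.

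The total of estimated counts ranged from 9416790 in rActivin A replicate 2 to 59916462 in DMH1 replicate 1. The rActivin A replicate 2 library was also the one with the shortest mean fragment implied by the deposited effective lengths, 313 bases against 348 to 371 bases in the others. At that depth, the lowest estimated count of any of the 64 genes in an rActivin A library was 49.5.

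Together the 64 genes took 2212 and 2193 CPM in the rActivin A libraries, or 0.221% and 0.219% of their counts. Their sum was 581 and 566 CPM after rBMP4, 384 and 369 CPM in mock, and between 281 and 348 CPM in the 8 libraries of the other 4 conditions. In bulk embryos, a higher level per cell and a larger number of expressing cells cannot be told apart. Most of the genes were present at low levels without the ligand rather than absent: 60 had a count in every library and 0 were without a count in all 12 others. The highest CPM outside rActivin A was below 1 for 4 genes, below 2 for 19 and below 5 for 44. The highest was 188 CPM, and the median was 3.30 CPM. With rActivin A, the lower of the 2 libraries ranged from 5.07 to 517 CPM with a median of 10.6 CPM, and it was below 10 CPM for 31 genes and at least 100 CPM for 3. The ratio that defined the genes ran from 2.03 to 16.0 with a median of 3.21. It was at least 3 for 36 genes, at least 5 for 12 and at least 10 for 2.

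**Figure D1:**
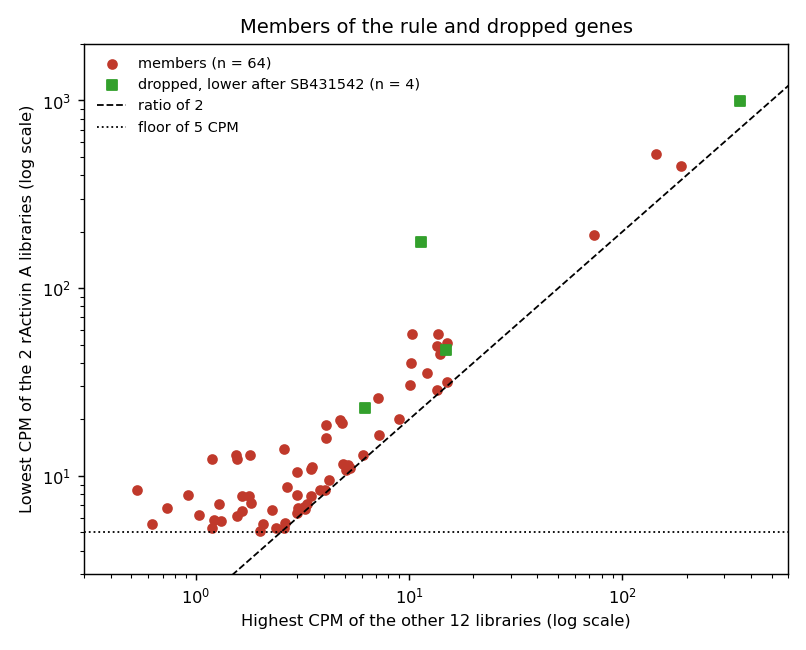
Each point is a gene, with its highest CPM in the other 12 libraries on the x axis and its lowest CPM in the 2 rActivin A libraries on the y axis (both log scales). Red points are the 64 chosen genes, green squares the 4 dropped genes, and the lines mark the ratio of 2 and the floor of 5 CPM. Most red points sit in the lower left, and 3 stand apart at 100 CPM or more after rActivin A.

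Relative to each of the other conditions, the median fold of the mean rActivin A CPM lay between 5.16 and 7.85. It was 7.05 over mock, 7.85 over 0.2% DMSO, 7.49 over 0.4% DMSO, 6.37 over SB431542 and 5.16 over rBMP4. Over DMH1 it was 7.20, with the gene that had no count there set at its lower bound. In the edgeR fit of 10 libraries, which left out DMH1 and 0.2% DMSO, the median log2 fold change of the 64 genes over mock was 2.79, beside −0.02 over all 20463 genes tested. The choice placed all 64 genes on the higher side of this contrast and 0 on the lower side in advance, so their number past the limits for a call is no result. Over all genes tested, 7.99% passed those limits as higher and 9.72% as lower.

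Levels of different genes were compared in TPM, which accounts for transcript length. The highest of the 64 in rActivin A was OFUSG07317, at 539 ± 24.8 TPM (SD, n = 2). OFUSG07317 reached 517 and 521 CPM with rActivin A and 144 and 135 CPM with rBMP4. It had 33.2 and 32.9 CPM in mock, 8.98 and 8.52 CPM in 0.4% DMSO, and 6.24 and 5.85 CPM in SB431542. In 0.2% DMSO it had 13.2 and 4.22 CPM, and in DMH1 4.16 and 3.23 CPM. The conditions thus formed a graded series for this gene, with rActivin A, rBMP4 and mock fully separated from each other and from the 8 remaining libraries. Its log2 fold change of rActivin A over mock was 3.95 ± 0.10 (SE).

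OFUSG23413 was at 199 ± 11.9 TPM (SD, n = 2) with rActivin A. It had 446 and 447 CPM with rActivin A, 188 and 167 CPM with rBMP4, 134 and 122 CPM in mock, and between 61.3 and 102 CPM in the other 8 libraries. Its order of conditions was the same as that of OFUSG07317 for the 3 highest. OFUSG12736, whose leading transcript of 5926 bases was the longest of the 64, had 216 and 193 CPM with rActivin A and between 56.5 and 73.8 CPM in all other libraries. There rBMP4, with 61.4 and 65.5 CPM, was little above mock, with 59.2 and 59.8 CPM. The log2 fold change was 0.06 ± 0.11 (SE) and was not called.

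OFUSG24163 was low without a ligand and had 62.7 and 57.1 CPM with rActivin A. It had 8.74 and 10.3 CPM with rBMP4, 2.87 and 2.82 CPM in mock, and between 0.384 and 2.69 CPM elsewhere. OFUSG24189 had 40.1 and 47.4 CPM with rActivin A, 9.65 and 10.2 CPM with rBMP4, and between 3.92 and 6.73 CPM elsewhere. In both genes the rBMP4 libraries were the second highest pair and overlapped with no other condition. OFUSG24190 had 10.9 and 11.7 CPM with rActivin A and between 1.23 and 3.48 CPM elsewhere. OFUSG24189 and OFUSG24190 were the only members with consecutive identifier numbers, and their positions in the genome were not analysed here.

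OFUSG14502 and OFUSG25968 were among the highest 8 in TPM, with short transcripts of 338 and 449 bases. The mean fragment implied for the 2 rActivin A libraries was 360 and 313 bases. The effective lengths of these 2 transcripts are therefore small, so their TPM and their rank by it are uncertain. OFUSG14502 had 16.6 and 17.2 CPM with rActivin A, and its lowest level was in mock, at 2.72 and 3.17 CPM. The solvent and inhibitor libraries lay between, at 4.31 to 7.23 CPM. OFUSG25968 had 6.66 and 7.33 CPM with rActivin A, 3.02 and 3.26 CPM in mock, and between 0.336 and 0.843 CPM in 0.4% DMSO replicate 1 and the SB431542 libraries. The second 0.4% DMSO library had 1.47 CPM.

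**Figure D2:**
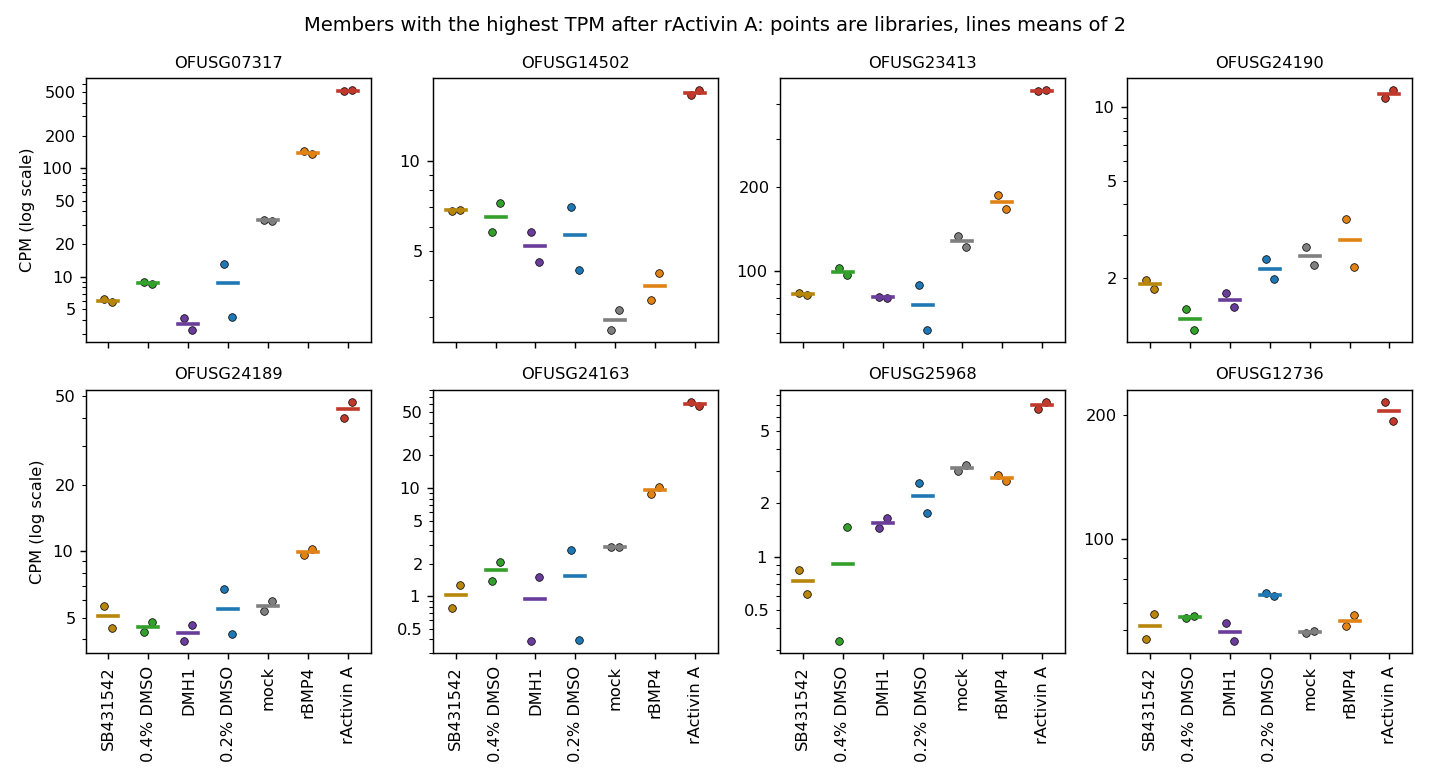
CPM (log scale, y axis, a separate scale in each panel) of the 8 chosen genes with the highest TPM after rActivin A, by condition (x axis), where points are libraries and lines the mean of 2. The rActivin A points are the highest in every panel by choice, while the order of the other conditions differs, with rBMP4 second in OFUSG07317, OFUSG23413, OFUSG24163 and OFUSG24189.

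The genes with the largest ratios were close to the lower limit of detection outside rActivin A. OFUSG02801, with a ratio of 16.0, had 8.43 and 9.88 CPM with rActivin A and at most 0.528 CPM elsewhere. OFUSG20658, with a ratio of 10.4, had 16.0 and 12.3 CPM with rActivin A and at most 1.19 CPM elsewhere. It had no count in either DMH1 library, so its level with rActivin A was at least 544-fold higher than in DMH1, against a floor of 3 counts over both libraries that covers counting error only.

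The next 3 had ratios between 8.60 and 9.20. OFUSG23293 had 6.72 and 7.11 CPM with rActivin A and at most 0.731 CPM elsewhere. OFUSG22927 had 8.50 and 5.52 CPM with rActivin A and at most 0.626 CPM elsewhere, and OFUSG15768 had 7.90 and 9.56 CPM and at most 0.919 CPM. In OFUSG22927 the 2 rActivin A libraries differed more than in most of the 64 genes, although both exceeded every other library by the margin that the choice required.

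OFUSG02794 separated the conditions in a different way. It had 19.2 and 13.0 CPM with rActivin A, and its next highest pairs were SB431542, with 1.01 and 1.54 CPM, and 0.4% DMSO, with 1.35 and 0.858 CPM. The mock libraries held 1 and 0 counts. The ratio of rActivin A to mock was 835, with a 95% interval from 149 to 33059 by an exact binomial method that covers counting error only. OFUSG24065 had 12.4 and 17.3 CPM with rActivin A and at most 1.57 CPM elsewhere, and OFUSG26451 had 12.9 and 13.6 CPM and at most 1.80 CPM elsewhere.

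**Figure D3:**
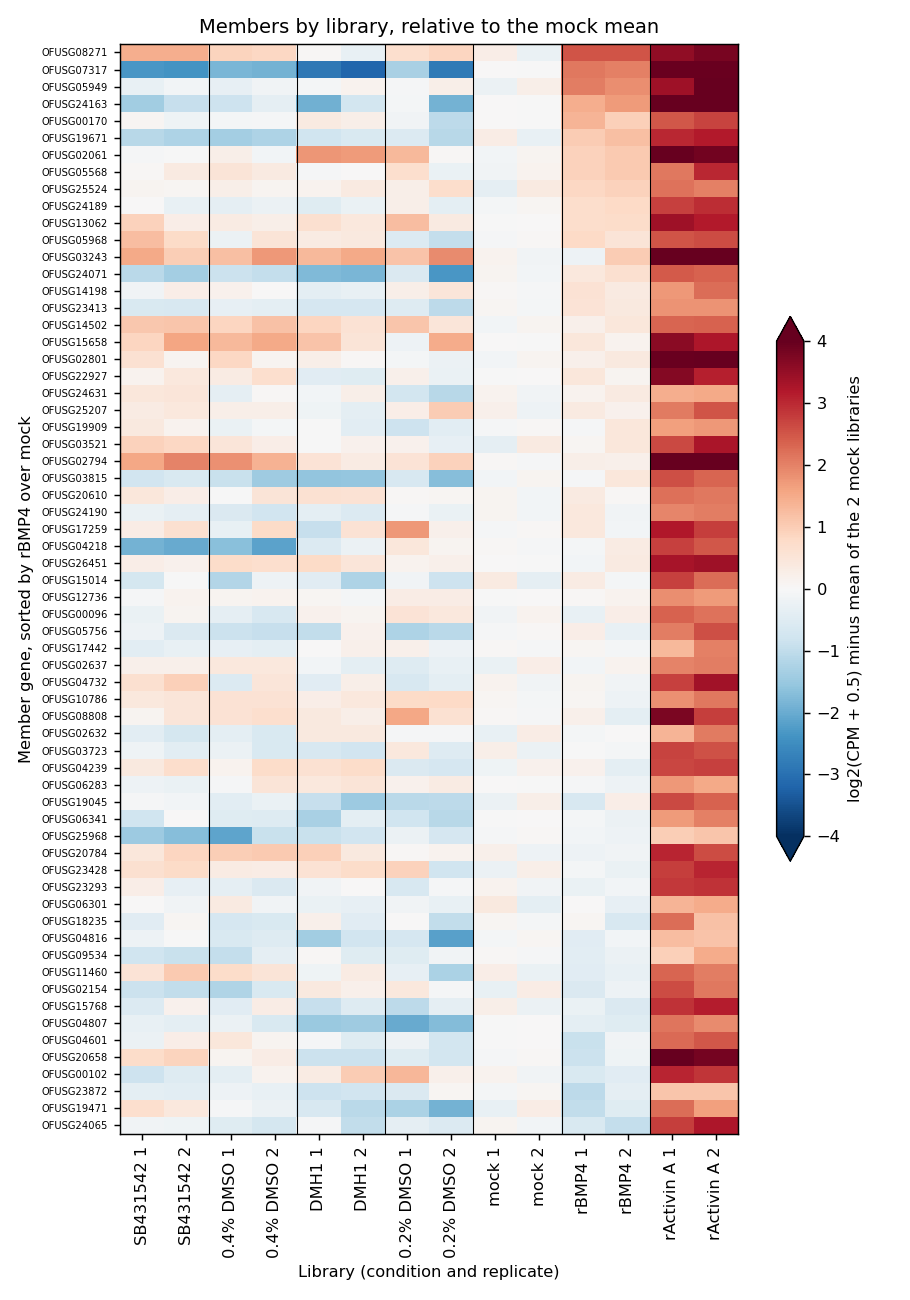
Each row is one of the 64 genes and each column a library, labelled with its condition and replicate. Colour shows log2(CPM + 0.5) minus the mean of the 2 mock libraries, with red for higher and blue for lower values and the end colours for values beyond the scale. Rows are sorted by rBMP4 over mock, and red in the rBMP4 columns is limited to the upper rows, while both rActivin A columns are red throughout by choice.

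Which members also responded to the other ligand was asked in the contrast of rBMP4 with mock. The rule limits both conditions alike and does not use their difference, but the mock libraries are shared with the description of rActivin A above. Of the 64 genes, 7 (10.9%) were called higher after rBMP4 with edgeR's quasi-likelihood test, against 0.826% of the 20463 genes tested. A call required a Benjamini-Hochberg adjusted p under 0.05 together with a change of 1 or more on the log2 scale. None was called lower, against 0.66% of the genes tested. At an unadjusted p below 0.05, 14 were higher and 3 lower, 17 of 64 in all, beside 8.59% of the genes tested. DESeq2 called 7 higher and 0 lower, beside 168 and 127 over all genes. The log2 fold changes of the 64 genes ran from −1.25 to 3.46 with a median of 0.08, beside a median of 0.00 over all genes tested. In a fit without the rActivin A libraries, chosen after seeing the data, 62 of the 64 genes passed the filter on low counts. There 7 were called higher, 6 of them among the 7 above, beside 214 over all genes. Without any one of the 4 mock and rBMP4 libraries, fewer genes were called higher, among the members and over all genes. The median log2 fold change of the members then lay between 0.04 and 0.13.

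Of the 7 genes, OFUSG07317 had the smallest adjusted p. With the values given above, it rose by 2.05 ± 0.09 (SE) on the log2 scale after rBMP4 (edgeR, adjusted p = 1.71e-10), beside 3.95 ± 0.10 after rActivin A. OFUSG08271 had 4.97 and 5.05 CPM with rBMP4, 0.650 and 0.304 CPM in mock and 10.7 and 13.0 CPM with rActivin A. It rose by 3.32 ± 0.36 on the log2 scale after rBMP4 (edgeR, adjusted p = 8.82e-06), and its mean with rActivin A was 2.37 times that with rBMP4, the smallest such fold of the 64.

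OFUSG05949 had 2.28 and 1.99 CPM with rBMP4, 0.0765 and 0.304 CPM in mock, and 6.61 and 14.02 CPM with rActivin A. Its log2 fold change after rBMP4 was 3.46 ± 0.60 (SE; edgeR, adjusted p = 0.00175), and without mock replicate 1 it was 2.74 and did not pass, at an adjusted p of 0.0522. OFUSG24163, at 1.72 ± 0.21, was also higher with rBMP4 than with mock (edgeR, adjusted p = 4.37e-05).

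The remaining 3 are named because they complete this small group and were chosen after their values were seen. OFUSG19671 had 11.8 and 13.6 CPM with rBMP4, 7.002 and 4.47 CPM in mock, and 49.4 and 54.4 CPM with rActivin A. OFUSG00170 had 9.02 and 6.57 CPM with rBMP4, 3.22 and 3.15 CPM in mock, and 20.0 and 23.4 CPM with rActivin A. OFUSG02061 had 2.06 and 2.26 CPM with rBMP4, 0.727 and 0.955 CPM in mock, and 26.1 and 18.7 CPM with rActivin A. In OFUSG02061 the DMH1 libraries, at 4.09 and 3.86 CPM, lay above the rBMP4 libraries, and in OFUSG19671 and OFUSG00170 the rBMP4 libraries were the second highest pair.

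The mock and 0.4% DMSO controls were also compared with each other. They differ in solvent and in the start of treatment, which cannot be told apart here. Of the 64 genes, 6 (9.38%) were called higher in 0.4% DMSO than in mock, beside 9.21% of all genes tested, and 7 (10.9%) were called lower, beside 11.2%. By this call, which needs a change of 1 on the log2 scale, the members differed about as often as genes in general. At an unadjusted p below 0.05 (edgeR), 9 were higher and 15 lower. These 24 of 64 are a smaller share than the 53% of the genes tested. The members had medians of only 1.47 and 1.75 CPM in 0.4% DMSO and 1.72 and 1.78 CPM in mock. The genes tested were not matched to them for level, so these shares are not like for like. Leaving out 0.4% DMSO replicate 1 or replicate 2 moved the median log2 fold change of the 64 genes from −0.09 to 0.02 or −0.33.

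The highest was OFUSG02794, with 42 counts over both 0.4% DMSO libraries and 1 over both mock libraries, a ratio of 55.6 with a 95% exact binomial interval from 9.45 to 2248 that covers counting error only. OFUSG03243 had 1.44 and 2.27 CPM in 0.4% DMSO and 0.421 and 0.261 CPM in mock, a log2 fold change of 2.40 ± 0.56 (edgeR, adjusted p = 0.00192). OFUSG15658 had 2.35 and 2.82 CPM against 0.689 and 0.651 CPM, a log2 fold change of 1.94 ± 0.40 (edgeR, adjusted p = 0.000693). With rActivin A these last 2 genes had 14.4 and 13.9 CPM and 13.9 and 10.51 CPM.

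In the other direction, OFUSG04218 fell by 2.08 ± 0.23 on the log2 scale, from 10.1 and 9.45 CPM in mock to 2.70 and 1.84 CPM in 0.4% DMSO (edgeR, adjusted p = 1.49e-06). Its SB431542 libraries were at 2.28 and 2.05 CPM, and all 6 libraries of rBMP4, DMH1 and 0.2% DMSO were at 6.50 CPM or above. OFUSG07317 fell by 1.91 ± 0.11 (edgeR, adjusted p = 1.75e-09). OFUSG25968 fell by 1.84 ± 0.46 (edgeR, adjusted p = 0.00355), but by 1.05 without 0.4% DMSO replicate 1, where the call was lost at an adjusted p of 0.0717.

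**Figure D4:**
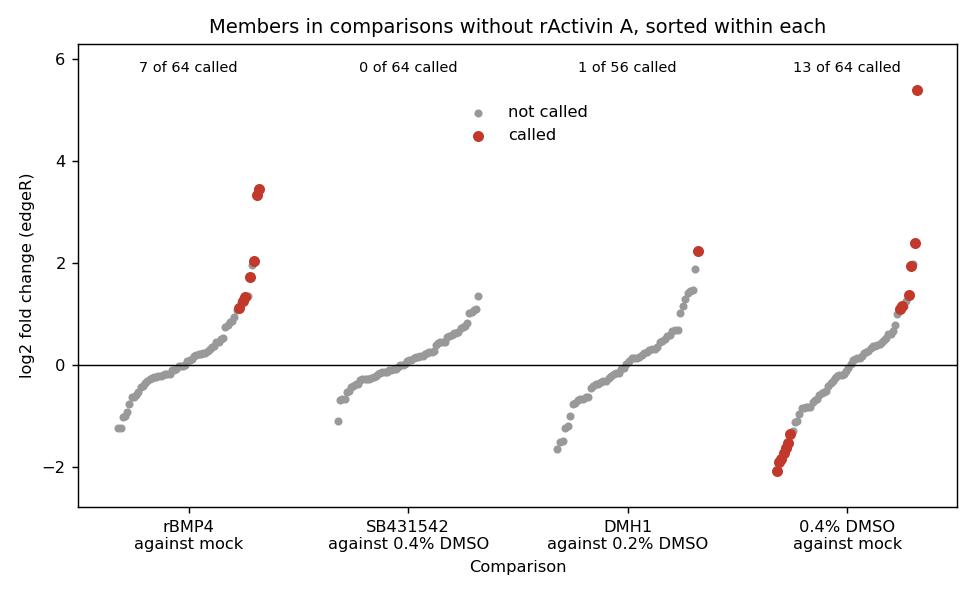
Log2 fold changes of the chosen genes (y axis, edgeR) in the 4 comparisons that do not involve rActivin A (x axis), each sorted from lowest to highest. Red points passed the test and the minimum change: 7 of 64 for rBMP4 against mock, all higher, 0 of 64 for SB431542 against 0.4% DMSO, 1 of 56 for DMH1 against 0.2% DMSO, and 13 of 64 for 0.4% DMSO against mock in both directions.

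After SB431542, the contrast with 0.4% DMSO left only the higher direction free, because the rule removed the 4 genes that fell past its limit. Genes with a smaller or less even fall were kept. With edgeR, 0 of the 64 genes were called higher than in 0.4% DMSO, against 0.215% of the genes tested. DESeq2 called 0 higher, beside 48 over all genes. In the lower direction, 0 of the genes left were called by either tool. The rule had used this direction, so this is no result, and over all genes tested 0.41% were called lower with edgeR. An unadjusted p below 0.05 was reached by 5 higher and 3 lower members, 8 of 64 in all, beside 7.89% of the genes tested. The log2 fold changes ran from −1.10 to 1.34 with a median of 0.08. OFUSG07317, with 6.24 and 5.85 CPM after SB431542 and 8.98 and 8.52 CPM in 0.4% DMSO, was lower without overlap between the libraries. Its log2 fold change was −0.54 ± 0.13 (SE), given as a description because the rule used this direction.

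The 4 dropped genes show what the rule removed. OFUSG17248, at 326 ± 12.9 TPM (SD, n = 2) with rActivin A, was below OFUSG07317 and above all other members in TPM. It had 1030 and 999 CPM with rActivin A and 357 and 345 CPM with rBMP4. It had 198 and 185 CPM in mock and 106 and 138 CPM in 0.4% DMSO, and 35.1 and 39.4 CPM after SB431542. OFUSG09074 had 177 and 185 CPM with rActivin A, 9.02 and 8.99 CPM with rBMP4, and 11.1 and 11.3 CPM in mock. Its ratio of 15.6 would have ranked between the largest and the second largest of the 64. It had 4.18 and 5.52 CPM in 0.4% DMSO and 2.14 and 2.33 CPM after SB431542.

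OFUSG23576 had 47.0 and 66.9 CPM with rActivin A, 1.92 and 2.64 CPM in 0.4% DMSO and 0.393 and 1.06 CPM after SB431542. OFUSG05020 had 23.1 and 23.0 CPM with rActivin A, 1.39 and 1.103 CPM in 0.4% DMSO and 0.562 and 0.704 CPM after SB431542. The fall after SB431542 is what removed these genes and is therefore given without a test.

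Inhibition of the BMP receptor was compared with 0.2% DMSO in a fit of those 4 libraries, where 56 of the 64 genes passed the filter on low counts. OFUSG04239 alone was called higher, with a minimum change of 0.5 on the log2 scale, against 5.25% of the genes tested. It had 1.47 and 1.65 CPM in DMH1 and 0.362 and 0.308 CPM in 0.2% DMSO, a log2 fold change of 2.24 ± 0.54 (edgeR, adjusted p = 0.0403). Its 4 libraries of 0.4% DMSO and SB431542 had between 0.913 and 1.65 CPM, so the DMH1 values were not outside the range of embryos kept without DMH1. The call was lost without DMH1 replicate 1 or replicate 2, where the log2 fold change was 2.34 and 2.15. Those fits, with 1 DMH1 library left, called few genes at all. With edgeR, 0 of the 56 were called lower, against 6.3% of the genes tested, and DESeq2 called 2 lower, beside 1815 over all genes. An unadjusted p below 0.05 was reached by 4 higher and 5 lower members, 9 of 56 in all, beside 31.3% of the genes tested.

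These counts rest on 0.2% DMSO libraries that differed from each other for many of the 64 genes. In replicate 1, 21 genes (32.8%) had at least 2 times the CPM of replicate 2, beside 239 (2.19%) of the 10928 genes with at least 5 CPM in both rActivin A libraries. The reverse held for 5 of the 64 genes and for 91 of the 10928. The 10928 genes were not matched to the members for level in 0.2% DMSO. There the members had medians of only 2.05 and 1.03 CPM in replicates 1 and 2, so these shares are not like for like. OFUSG07317 had 13.2 and 4.22 CPM, as given above, and OFUSG24163 had 2.69 and 0.396 CPM. The dropped gene OFUSG17248 showed the same unevenness, with 119 and 22.8 CPM, and so did OFUSG09074, with 2.59 and 0.176 CPM. The cause was not tested. Without 0.2% DMSO replicate 1, the rule gave 71 genes including all 64, and in the comparison with DMH1 12 members were called higher and 4 lower, beside 2791 and 2747 over all genes. Without 0.2% DMSO replicate 2, 4 were called higher and 6 lower, beside 2508 and 2629 over all genes, and without either DMH1 library 0 were called.

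Outside rActivin A, no single condition held the members. The second highest mean belonged to rBMP4 for 16 genes, to 0.2% DMSO, mock and SB431542 for 11 each, to 0.4% DMSO for 8 and to DMH1 for 7. The lowest mean belonged to DMH1 for 18 genes and to 0.2% DMSO for 16. The single highest library outside rActivin A was 0.2% DMSO replicate 1 for 11 genes and rBMP4 replicate 2 for 10. These orders rest on low counts for many genes and are a description.

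The 2 rActivin A libraries gave similar values for most of the genes. The CPM of replicate 2 over that of replicate 1 had a median of 1.02, the same as over the 10928 genes with at least 5 CPM in both. It was within 1.5 times in either direction for 53 of the 64 genes (82.8%), beside 93.5% of the 10928. The least alike were OFUSG05949, at 6.61 and 14.02 CPM, OFUSG05568, at 6.79 and 13.0 CPM, and OFUSG17442, at 9.54 and 16.0 CPM. In the other direction they were OFUSG18235, at 12.1 and 5.63 CPM, OFUSG08808, at 11.6 and 5.52 CPM, and OFUSG22927, given above. All of these had at most 16.0 CPM. For the 3 genes at 100 CPM or more, OFUSG07317, OFUSG23413 and OFUSG12736, replicate 2 was 1.01, 1.00 and 0.895 times replicate 1.

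Of the 64 genes, 10 (15.6%) had more than 1 annotated transcript, beside 18.4% of the 10928. The share of the transcript that led with rActivin A moved most from mock in 3 of them. For OFUSG02801, transcript OFUSG02801.1 held 65.4% and 73.9% of the gene's counts with rActivin A, while the 12 other libraries held too few counts to give a share that can be read. OFUSG25207.3 held 97.6% and 100% of its gene with rActivin A, 72.7% and 37.8% in mock, and between 33.8% and 96.2% elsewhere. In this gene the 0.2% DMSO libraries, at 93.1% and 96.2%, were close to the rActivin A libraries. OFUSG00096.1 held 62.6% and 59.0% of its gene with rActivin A and at most 50.8% in any other library, with 27.5% and 22.9% in mock. For OFUSG00096 the rActivin A libraries did not overlap with any other library, but the share was compared only for genes selected for this difference. Counts are divided between isoforms by estimation, so shares of single transcripts are less certain than gene totals.

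**Figure D5:**
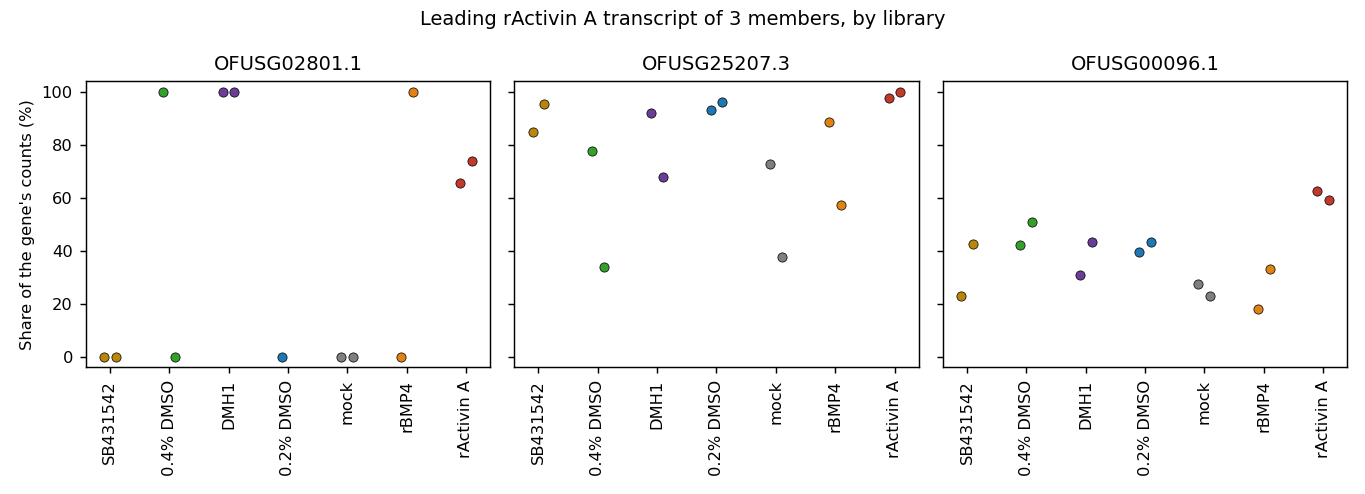
Share of the gene's estimated counts (y axis, %) held by the transcript that led with rActivin A, for 3 genes, where each point is a library and the x axis gives its condition. In OFUSG00096.1 the rActivin A points, at 62.6% and 59.0%, are above all others. In OFUSG02801.1 the points outside rActivin A lie at or near 0% or 100% because few counts stand behind them, and the gene had no count in 0.2% DMSO replicate 2.

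In length, the leading transcripts of the 64 genes had a median of 1812 bases and ran from 338 to 5926 bases, beside a median of 2083.5 bases over the 10928 genes. A single annotated transcript with a fractional count in some library (over 0.01 from a whole number), a sign of reads divided with another gene, occurred in 11 of 54 genes (20.4%), beside 22.2%. OFUSG02794, OFUSG22927, OFUSG15768, OFUSG04218, OFUSG00170, OFUSG05568, OFUSG17442 and OFUSG09534 are among these 11, and their values are less certain for that reason.

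None of the genes of the BMP pathway with known identifiers was among the 64. Of 6 such genes, 2 were called lower and 0 higher after rBMP4. The ligand *bmp2/4* (OFUSG12159) had 22.1 and 17.2 CPM with rBMP4, 31.0 and 32.9 CPM with rActivin A and 78.1 CPM in both mock libraries, and after rBMP4 it fell by 2.02 ± 0.12 on the log2 scale (edgeR, adjusted p = 5.65e-09). The antagonist *chordin* (OFUSG13105) had 437 and 388 CPM with rBMP4, 227 and 220 CPM with rActivin A and 895 and 898 CPM in mock, and after rBMP4 it fell by 1.15 ± 0.09 (edgeR, adjusted p = 1.04e-07). After rActivin A, their log2 fold changes over mock were −1.32 and −2.03. The ligand *bmp5-8* (OFUSG23310), the receptors *bmpr1* (OFUSG18180) and *bmpr2* (OFUSG26337) and the transducer *smad1/5/8* (OFUSG02732) were within the minimum change of 1 in both contrasts, between −0.34 and 0.64. After rBMP4, *bmpr2* and *smad1/5/8* still passed the adjusted p alone, at 0.64 and 0.39 (edgeR, adjusted p = 0.000858 and 0.0268). In DMH1 against 0.2% DMSO, *bmpr2* alone of the 6 was called, at −0.53 ± 0.12 (SE; edgeR, adjusted p = 0.0341). Over all genes tested there, 6.3% were called lower. The genes of the Activin/Nodal pathway itself were not analysed here because their identifiers were not paired with names in the sources used.

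The number of genes can be set against the same rule turned to the other conditions, without the last step. In place of the 68 for rActivin A, it gave 54 genes for DMH1, 46 for rBMP4, 26 for mock and 16 for SB431542, and 0 for 0.2% DMSO and 0.4% DMSO. A mirror rule for genes that were lowest only with rActivin A gave 21. It required at least 5 CPM in each of the other 12 libraries, so 21 and 68 were not counted alike. The number also rests on each rActivin A library, since without replicate 1 the rule gave 142 genes and without replicate 2 it gave 103, in both cases including all 64.

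Genes near the limits differed little from those left out. Just inside the ratio of 2, OFUSG09534 had a ratio of 2.03 and OFUSG25968 of 2.05, and just outside it OFUSG08321 and OFUSG22467 were at 2.00 (below 2 before rounding) and 1.99. Just inside the floor, OFUSG19909 and OFUSG06283 had 5.07 and 5.25 CPM in their lower rActivin A library, and just outside it OFUSG01558 and OFUSG25330 both had 4.99 CPM. OFUSG01558 had a ratio of 7.40, above that of most of the 64.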

How the data were processed

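Of 14 libraries of *O. fusiformis* blastulae, all were used, with 2 per condition and 7 conditions assigned from the labels. Reads had been trimmed with FastP and pseudoaligned to annotated transcripts with kallisto (version 0.46.2), and the submitters' processing notes also name DESeq2 (version 1.26.0). The authors deposited unnormalised estimated counts per transcript. For strandedness in the counting step, a setting was not given in the sources used here. Deposited TPM values, scaled for length and to a common total, served only to compare levels of different genes. Estimated counts were summed per gene (the identifier before the dot) and scaled to CPM of each library for the rule.

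For tests, summed counts were rounded, filtered with filterByExpr and TMM-normalised, and edgeR's quasi-likelihood test (version 4.0.16, R version 4.3.3) was used with Benjamini-Hochberg adjustment over all genes tested. DMH1 was fitted with 0.2% DMSO only, in 4 libraries (2 residual degrees of freedom) and the other 10 together (5). A call needed an adjusted p under 0.05 and a change of 1 on the log2 scale, or 0.5 for DMH1. DESeq2 (version 1.42.0), other scalings, floors, ratios and filters, single transcripts, a replicate block and leaving out each library were the alternatives. The script was tested on simulated data.

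Named genes were the 8 with the highest TPM, the 8 with the largest ratios, at most 3 called per direction and comparison, those nearest each limit, the 3 with the largest isoform shift, the dropped genes, the 6 BMP pathway genes and the 6 with the least alike rActivin A replicates. The members, lists and tests were chosen with earlier results of these data known. Of the 64 identifiers, 0 matched the RefSeq gene table.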

Additional observations from a re-analysis of the deposited data

How the results depend on the processing

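The number of genes meeting the rule depended on its limits. It was 189 without a floor, 159 with a floor of 1 CPM and 33 with one of 10 CPM, and 137, 36 and 20 with ratios of 1.5, 3 and 4. Without the DMH1 and 0.2% DMSO libraries it was 106. Leaving out 1 library gave 60 to 142, the extremes being 142 and 103 in the absence of rActivin A replicates 1 and 2, and otherwise at most 71. With deposited TPM it was 57, of which 42 were shared with the 64, with TMM 66 (63 shared), after thinning to the smallest library 60 (55 shared), and with single transcripts 70. After rBMP4, 3 members were called higher when single transcripts were tested, beside 92 transcripts in all. After SB431542, 1 (OFUSG07317) was lower at the adjusted p alone, beside 173 over all genes, in the direction that the rule used. For DMH1, higher calls were 6 in a fit of all 14 libraries, beside 1696 over all genes, in place of 1 beside 1087. Higher calls were 0 with single transcripts, beside 289 transcripts in all. They were 0 to 12 without a library, where the number over all genes moved too. Lower calls were 2 with DESeq2, 1 without a filter and 7 in the fit of 14, beside 1815, 1584 and 2443 over all genes. In 0.4% DMSO against mock, higher and lower calls were 8 and 11 at the adjusted p alone, beside 4598 and 4837 over all genes. The genes named as at most 3 called per direction and comparison kept their sign in each alternative computed for them. The median log2 fold change of the members did not always do so. For SB431542 it went from 0.08 to −0.02 without SB431542 replicate 2. For DMH1 it went from 0.04 to −0.04 with DESeq2. For 0.4% DMSO against mock it went from −0.09 to 0.02 without 0.4% DMSO replicate 1. No source used here says whether the replicate numbers pair the samples. Differences between replicates correlated at −0.0544 to 0.0766 over 21 pairs of conditions. This cannot settle the question, because counting error also enters such differences. With the replicate block, 6 members were higher after rBMP4 in place of 7, 0 after DMH1 in place of 1, and 6 higher and 7 lower in 0.4% DMSO. Over all genes, the counts in that order were 154, 760, 1810 and 2238. The causes were not tested. With 2 libraries per condition and low counts for many members, a gene that was not called is not shown to be unchanged.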
